A study of Mus musculus with 4 samples.

Results

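Cells carrying megakaryocyte and platelet transcripts were rare in these sorted embryonic endothelial cells: 140 of the 20836 cells that passed the filters carried them. They were chosen by their own counts. A cell was kept with at least 1000 detected genes and under 10% of its UMIs from mitochondrial genes, where a UMI is a tag that marks 1 captured RNA molecule. A kept cell was taken as a Pf4-marker cell when it held at least 3 raw UMIs of Pf4 and at least 3 of the 5 genes Pf4, Ppbp, Gp9, Gp1bb and Itga2b were detected. The 4 libraries held 25, 37, 15 and 63 such cells, in the order WT1, WT2, KO1 and KO2 that is used for every set of 4 values below. Because these 5 genes chose the cells, their levels, and every other level set against the remaining cells, are given as a description with no test.

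The cells came from the aorta-gonad-mesonephros region (AGM) of mouse embryos at embryonic day 10.5. Endothelial cells that were CD31+ and CD45- (the label writes C45-) were sorted from age-matched wild-type embryos (genotype wild type; libraries WT1 and WT2) and from embryos without the microRNA miR-223 (genotype mir-223 -/-; libraries KO1 and KO2). RNA was read with the 10x Genomics 3' kit, version 3, which counts the 3' ends of transcripts. The labels name no Cre driver, treatment or strain for either group, nor how many embryos were pooled or their sex. The study asked how loss of miR-223 bears on blood formation from endothelium, as its title states.

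Megakaryocytes are the cells that make platelets. They arise early in the embryo, first from yolk sac progenitors, under the transcription factors GATA1, its cofactor FOG1 (Zfpm1), FLI1, RUNX1 and NF-E2, and they grow large by replicating DNA without dividing. Their products include the integrin αIIbβ3 (Itga2b with Itgb3), which binds fibrinogen, the GPIb-IX-V complex (Gp1ba, Gp1bb, Gp9, Gp5), which binds von Willebrand factor, the chemokines Pf4 and Ppbp of the alpha granules, and the arachidonic acid enzymes that make thromboxane. miR-223 is a microRNA abundant in myeloid cells, megakaryocytes and platelets; it is cut from an X-linked host transcript, F630028O10Rik, and lowers messages whose 3' untranslated region (UTR) pairs with its seed, bases 2 to 8.

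The mature miR-223-3p, the molecule absent from the KO embryos, is shown first because it defines what a direct target carries. It is printed 5' to 3' with its seed in capitals, from RefSeq on GRCm38.p6 at chrX:96242884-96242905, plus strand. Below it stand 3 seed matches in the 3' UTRs of Mef2c and Lmo2, which encode transcription factors used by megakaryocytes and have been described as miR-223 targets. They are printed as DNA on the gene's strand from GENCODE M21 on GRCm38, with the 7-base match AACTGAC and, where it follows, the A opposite base 1 in capitals. The Mef2c sites lie at chr13:83663882-83663903 and chr13:83664292-83664313, plus strand, and the Lmo2 site at chr2:103981316-103981337, plus strand.
mmu-miR-223-3p: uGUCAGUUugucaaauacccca
Mef2c site 1: caaactattgggtcAACTGACA
Mef2c site 2: accttcatgattttAACTGACc
Lmo2 site: aggctagccatagtAACTGACA

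The 250 bases before the start of Pf4 and of Itga2b are shown because these genes chose the cells and were high in the same cells. They are from RefSeq on GRCm38.p6, Pf4 at chr5:90772185-90772434, plus strand, and Itga2b at chr11:102469884-102470133, printed on its own minus strand. The windows are taken from RefSeq's starts: by GENCODE M21, whose Itga2b gene (chr11:102453297-102470122) starts further upstream, 239 of these 250 bases lie inside it, and none of the Pf4 window lies inside Pf4. The ETS core GGAAG, the letters that FLI1-type factors bind, was searched on both strands and is in capitals (CTTCC on the opposite strand).
Pf4: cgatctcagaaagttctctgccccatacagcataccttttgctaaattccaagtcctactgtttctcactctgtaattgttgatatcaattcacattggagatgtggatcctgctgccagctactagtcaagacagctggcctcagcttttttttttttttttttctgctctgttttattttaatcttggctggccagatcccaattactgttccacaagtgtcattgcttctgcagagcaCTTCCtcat
Itga2b: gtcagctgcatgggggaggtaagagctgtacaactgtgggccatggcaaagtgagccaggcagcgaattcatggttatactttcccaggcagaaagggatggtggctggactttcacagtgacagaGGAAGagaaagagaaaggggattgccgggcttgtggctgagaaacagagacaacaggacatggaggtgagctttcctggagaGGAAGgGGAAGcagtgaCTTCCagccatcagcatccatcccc
GGAAG stood 1 time in the Pf4 window and 4 times in that of Itga2b. It was present before all 5 marker genes, and in 63.6% of 27025 mouse promoter windows of the same length. The GATA letters AGATAA were in none of the 5 windows and in 10.3% of all windows, and the RUNX letters TGTGGT were in 1 of 5, that of Gp9, and in 14.2% of all. Of the 15 genes that led these cells outside the rule, 10 had a window, of which 6 held GGAAG and 2 (F2rl2 and Gp5) held AGATAA. A match of letters is a description and not a binding site.

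The deposited barcodes numbered 3917, 11186, 6119 and 10299, with 95158639, 181682389, 109713066 and 167542930 UMIs over 31053 genes, and 2381, 7650, 4357 and 6448 of them were kept. Each library was 1 replicate. Nothing in the labels ties the libraries of a genotype to different embryos or litters, so every p-value here is set against a spread between libraries that may be technical. Between 8 and 28 barcodes were found in both libraries of a pair, 2 Pf4-marker cells carried a barcode that another library also had, and no Pf4-marker barcode was shared. Xist, the X-inactivation transcript, was at 216, 181, 0 and 233 CPM (UMIs of the summed cells, scaled to 1000000) in the Pf4-marker cells, so that KO1 had none, and in the other cells at 271, 257, 0.0317 and 248 CPM. The Y-linked Ddx3y was detected in all 4 libraries, at 24.3, 28.2, 30.2 and 16.3 CPM. The part of embryo sex in the results was not tested.

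The label of megakaryocyte lineage held for part of the cells only. Pf4 ran from 3 to 2194 UMIs per cell with a median of 62.5, and the cells fell into a range of 58 with at least 100 Pf4 UMIs (Pf4-rich; 11, 15, 5 and 27 cells) and one of 82 with 3 to 99 (Pf4-low; 14, 22, 10 and 36 cells). The limit of 100 was chosen after the values were seen; it marks a range and not a type, and 27 cells lay between 50 and 199. Of the Pf4-rich cells 54 of 58 held a Gata1 UMI, 56 held Plek, 51 held Runx1 and 43 held Ppbp. Of the Pf4-low cells 28 of 82 held Gata1, 52 Plek, 43 Runx1 and 25 Ppbp. Cdh5, the VE-cadherin of endothelial junctions, reached 5 or more UMIs in 6 of 58 Pf4-rich cells and in 42 of 82 Pf4-low cells, 35 of them without Gata1. The progenitor genes Runx1 and Myb were found together in 19 Pf4-low cells, 7 of them among the 10 in KO1. Col1a1, a fibroblast collagen, had a UMI in 24, 10.8, 6.67 and 6.35% of Pf4-marker cells against 12.2, 2.19, 9.17 and 2.84% of other cells, whose median depth was lower, and 5 or more UMIs in 6 of 140 cells, 5 of them Pf4-low. The Pf4-low range thus held cells with megakaryocyte, progenitor and endothelial transcripts and a few with many collagen transcripts, so the whole set is called Pf4-marker cells here.

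**Figure D1:**
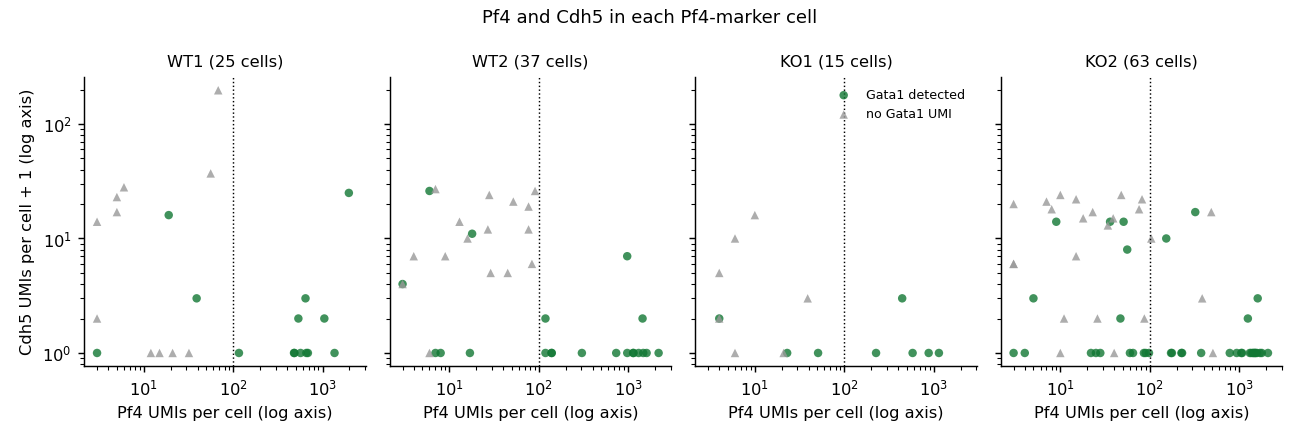
Each point is 1 of the 140 Pf4-marker cells, by library, with Pf4 UMIs on the x axis and Cdh5 UMIs + 1 on the y axis, both logarithmic; green circles hold a Gata1 UMI, grey triangles do not, and the dotted line is at 100 Pf4 UMIs. Right of the line 54 of 58 cells hold Gata1 and 6 have 5 or more Cdh5 UMIs; left of it 42 of 82 have 5 or more.

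At the edge of the rule, 17 cells just inside had 3 to 5 Pf4 UMIs. Just outside, 8 kept cells had 3 markers and 2 Pf4 UMIs, 56 had at least 3 Pf4 UMIs with 2 markers, and 64 had at least 3 with Pf4 alone. All 5 markers were found in 42 Pf4-marker cells, 4 in 35 and 3 in 63. A Pf4 UMI was also present in 16.98%, 8.15%, 4.85% and 11.3% of all other kept cells, with up to 66 UMIs, at median depths of 30535, 18751, 20557 and 19260 UMIs per cell. Simulated-doublet scores at the rate of the kit called 1, 2, 2 and 9 Pf4-marker cells doublets, 14 in all, of which 12 were Pf4-low. These were 4, 5.41, 13.3 and 14.3% of the Pf4-marker cells, against 3.01, 8.82, 4.77 and 8.14% of other cells. The share was thus above that of other cells in WT1, KO1 and KO2 and below it in WT2. At least 3 of 6 endothelial genes (Cdh5, Kdr, Cldn5, Plvap, Tie1, Emcn) were detected in 94 of the 140 cells, 33 of them Pf4-rich.

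The genes of the rule itself were high and uneven. Pf4 stood at 6699.8, 11027, 7998 and 12908 CPM, and within the Pf4-rich cells at 14423, 26583, 22226 and 25167 CPM. Ppbp, the precursor of platelet basic protein, stood at 253, 894, 413 and 669 CPM and was found in 40, 56.8, 26.7 and 52.4% of the cells. WT1 was lowest for both chemokines. Gp9 stood at 131, 255, 306 and 297 CPM and Gp1bb at 22.01, 48.01, 23.2 and 57.1 CPM, with a Gp1bb UMI in 36, 37.8, 33.3 and 53.97% of cells. Itga2b, the αIIb integrin chain, stood at 297, 293, 457 and 433 CPM, with both KO libraries above both WT libraries; as its own counts helped to choose the cells, no test is read from it.

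The remaining transcripts were set beside 648 Runx1-positive cells without any of the 5 markers (65, 218, 174 and 191 cells) and beside the 20048 kept cells in neither group, called other cells. The 5 marker genes are left out of every count and median of a list, since their counts chose the cells. Surface receptors of platelets were mostly higher in the Pf4-marker cells. Of 22 listed receptor and adhesion genes 17 were higher than in other cells in 4 of 4 libraries. The median log2 ratio of the 22 was 2.55. Of 11306 genes with at least 10 UMIs in the Pf4-marker cells, 20.5% were higher in the same way and their median was -0.04. That filter leaves out genes scarce in the Pf4-marker cells and was not put on the lists, so 20.5% is not a share of all genes. Gp5, a subunit of the von Willebrand factor receptor, stood at 155, 226, 292 and 288 CPM against 0.454, 0.179, 0.148 and 0.200 in other cells. Treml1, a receptor stored in alpha granules, stood at 333, 416, 429 and 440.2 CPM against 0.756, 0.332, 0.306 and 0.400. F2rl2, the thrombin cofactor PAR3, stood at 206, 194, 181 and 249.6 CPM against 0.302, 0.0703, 0.201 and 0.0518. In each of the 3 the libraries of the 2 classes were far apart. Itgb3, the partner of αIIb, stood at 169.98, 191, 202 and 287 CPM against 1.36, 1.25, 1.89 and 1.73. Clec1b, a platelet receptor for podoplanin, stood at 386, 672, 554 and 709 CPM in Pf4-marker cells and already at 167, 202, 183 and 202 in other cells. P2ry12, the ADP receptor of platelets, was at 6.07, 7.62, 6.96 and 7.68 CPM, which is 8, 10, 3 and 16 UMIs.

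**Figure D2:**
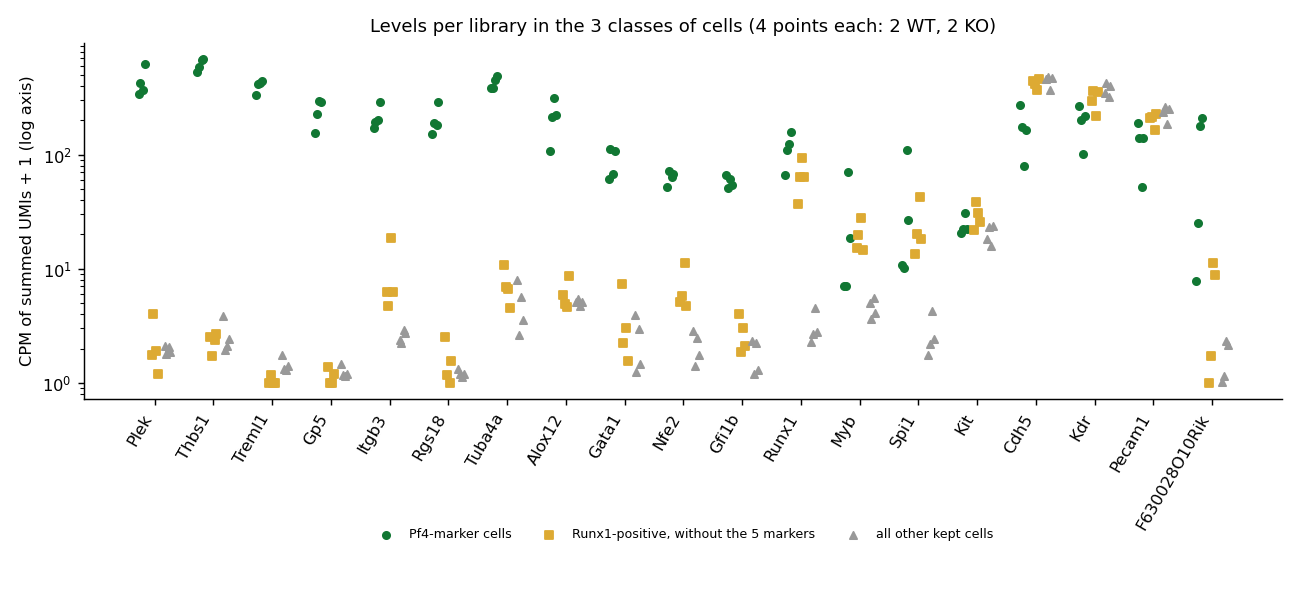
CPM of summed UMIs + 1 on a logarithmic axis for 19 genes, 4 points (2 WT and 2 KO libraries) for each of Pf4-marker cells (green circles), Runx1-positive cells without the 5 markers (yellow squares) and other cells (grey triangles). Platelet and megakaryocyte genes such as Plek, Thbs1 and Gata1 lie higher in all 4 libraries of Pf4-marker cells, and Cdh5 and Pecam1 lie lower. Plek and Thbs1 were picked for a high ratio to other cells.

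Granule genes followed. Of 17 alpha granule genes 12 were higher than in other cells in every library (median log2 ratio 1.403). Of 15 dense granule genes 9 were (median 0.88), where 20.5% of the 11306 genes were. Thbs1, the adhesive protein thrombospondin-1, stood at 528, 588, 675 and 692 CPM against 2.82, 0.933, 1.12 and 1.44 in other cells. Srgn, the proteoglycan serglycin that holds Pf4 in granules, stood at 97.9, 248, 427 and 215 CPM against 14.95, 17.6, 12.7 and 18.6. Vwf, von Willebrand factor, which endothelium also makes, stood at 90.3, 91.4, 111 and 111 CPM against 40.9, 51.9, 41.8 and 52.7. The 4 libraries of Vwf lay above those of other cells by a smaller step than for Thbs1 and overlapped the 60.6, 60.2, 109 and 109 CPM of the Runx1-positive cells. In the dense granule list Rab27b, a granule-transport GTPase, stood at 355, 367, 332 and 502 CPM against 4.28, 4.61, 4.72 and 4.599, and Slc35d3, needed to build dense granules, at 104, 88.4, 53.4 and 109 CPM against 0.655, 0.396, 0.296 and 0.415. The lysosomal Lamp2 stood at 60.7, 55.6, 53.4 and 72.01 CPM against 68.6, 72.5, 63.3 and 68.9 and overlapped.

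Signalling and cytoskeletal genes were nearly all higher. Of 25 platelet signalling genes 23 were higher than in other cells in every library (median log2 ratio 3.43). So were 20 of 20 proplatelet cytoskeleton genes (median 1.84), where 20.5% of the 11306 genes were. Plek, pleckstrin, a protein kinase C substrate of platelets, stood at 339, 428, 371 and 623 CPM against 1.10, 0.799, 1.08 and 0.852. Fermt3, kindlin-3, which activates integrins, stood at 385, 407, 327 and 475 CPM against 4.37, 2.67, 2.95 and 2.69. Rgs18, a brake on G-protein signals in platelets, stood at 153, 188, 181 and 287 CPM against 0.315, 0.185, 0.127 and 0.207. KO2 was the highest library for all 3. Gng11, a G-protein subunit that endothelium also carries, went the other way, at 531, 455, 251 and 414 CPM against 799, 922, 646 and 885. In the cytoskeleton Tuba4a, an alpha tubulin of platelets, stood at 387, 384, 450.03 and 494 CPM against 6.95, 1.63, 4.65 and 2.53, and Tmsb4x, the actin-binding thymosin β4, at 16777, 16894, 14932 and 18051 CPM against 10679, 12413, 9521 and 12570.2. Tubb1, the β1 tubulin of proplatelets, named after its values were seen, stood at 22.01, 34.3, 30.2 and 46.1 CPM, with a UMI in 40, 40.5, 26.7 and 39.7% of cells.

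Other genes that led the Pf4-marker cells were Bin2, Nrgn, Rabgap1l, Rgs10 and Fcer1g. Bin2, a membrane-curving protein of blood cells, stood at 274, 276, 304 and 353 CPM against 1.05, 0.780, 0.940 and 1.07. Nrgn, the calmodulin-binding neurogranin, stood at 234, 356, 380.4 and 335 CPM against 3.57, 2.50, 3.27 and 2.68. Fcer1g, the signalling chain of the collagen receptor GPVI, stood at 251, 394, 248 and 425 CPM against 6.49, 6.56, 5.08 and 6.96. In all 5 genes every library of Pf4-marker cells lay above every library of other cells. The genes were picked for a high ratio to other cells in every library, so this order follows from the choice.

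Megakaryocyte transcription factors separated the Pf4-marker cells from the Runx1-positive cells less evenly. Of 23 listed factors 17 were higher than in other cells in every library (median log2 ratio 0.97) and 15 higher than in Runx1-positive cells (median 0.74), where 17.6% of 11306 genes were. Gata1 stood at 59.9, 110.5, 67.3 and 107 CPM, against 6.40, 1.23, 2.05 and 0.557 in the Runx1-positive cells and 2.97, 0.256, 1.98 and 0.452 in other cells. Nfe2, the blood subunit of NF-E2, stood at 51.6, 71.6, 62.6 and 67.2 CPM against 4.14, 4.75, 10.3 and 3.72 and 1.84, 0.403, 1.49 and 0.755. Gfi1b, a repressor needed for platelets and red cells, stood at 65.3, 50.3, 60.3 and 53.8 CPM against 3.01, 0.879, 2.05 and 1.11 and 1.34, 0.205, 1.21 and 0.289. These 3 were high in Pf4-marker cells alone of the 3 classes, in all 4 libraries. Fli1 lay higher within each library by a smaller step. It stood at 137, 174, 99.7 and 181 CPM against 79.1, 96.9, 72.8 and 91.03 and 89.97, 107, 83.95 and 95.95. Across libraries the ranges met, with the 99.7 of KO1 below the 107 of WT2 other cells. Gata2, a stem and progenitor factor, overlapped. It stood at 6.83, 28.2, 41.8 and 40.3 CPM against 24.1, 27.1, 42.9 and 34.9 and 18.4, 18.2, 18.7 and 18.5. Runx1 stood at 65.3, 109.7, 123 and 156 CPM and was found in 60, 56.8, 80 and 73.02% of the cells. Mef2c stood at 301, 342, 218 and 385 CPM against 182, 243, 168 and 233, and Lmo2 at 225, 267, 259.8 and 238 CPM against 286, 314, 278 and 313.

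Transcripts of other cell types were measured in the same sums. The 20 endothelial genes summed to 3365, 2678, 1543 and 2594 CPM in Pf4-marker cells, to 995, 616, 630.2 and 1291 in Pf4-rich cells and to 6671, 7042, 6020.1 and 7057 in other cells, and 19 of 20 were lower than in other cells in every library, where 26.0% of 11306 genes were. Cdh5 stood at 270.1, 175, 78.9 and 163 CPM in Pf4-marker cells and at 47.3, 15.4, 13.6 and 53.98 in Pf4-rich cells, against 458, 476, 368 and 468 in other cells. Pecam1, the CD31 of the sort, stood at 187, 140.2, 51.03 and 139 CPM against 238, 263, 187 and 252. KO1 was the lowest of the 4 libraries for all these endothelial values in the whole set. Ptprc, the CD45 of the sort, was at 0, 0.762, 0 and 2.40 CPM, which is 0, 1, 0 and 5 UMIs. The 13 mesenchymal genes summed to 513, 293, 114 and 155 CPM in Pf4-marker cells and to 8.44, 227, 129 and 101 in Pf4-rich cells. The 20 progenitor genes summed to 572, 657, 1095 and 809.8 CPM against 122, 153, 134 and 158 in other cells, with Flt3 at 0.

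Haemoglobin and leukocyte genes gave the following. The 16 erythroid genes summed to 391, 738, 1387 and 1721 CPM in Pf4-marker cells and to 9836, 1193, 8984 and 1374 in other cells, with WT1 and KO1 high in the latter, and Rhd and Rhag at 0 in the former. Of 19 myeloid genes 6, Fcer1g among them, were higher than in other cells in every library, where 20.5% of the 11306 genes were. Another 8 (Cx3cr1, C1qa, C1qb, C1qc, Elane, Adgre1, S100a8 and S100a9) were at 0 in all 4 libraries. The lymphoid list summed to 8.35, 9.14, 16.2 and 17.3 CPM with Cd3e, Cd3g, Rag1 and Rag2 at 0, and the mast and basophil list to 6.07, 2.29, 0 and 2.88 CPM with 4 of 7 genes at 0. In the nephric list Pax2, Pax8 and 3 more of 11 genes were at 0, and the neural list summed to 159, 144, 48.7 and 164 CPM with Sox10 at 0. Germ cell genes summed to 16.7, 320.1, 183 and 167 CPM against 201, 279.5, 182 and 294. The interferon list, at 181, 291, 309 and 246 CPM, overlapped that of other cells, at 257, 296, 278 and 285 CPM. The heat shock and immediate early list, at 6231, 5193, 8490.3 and 6009.7 CPM, lay above that of other cells within each library, at 6019, 4083, 6135 and 4817 CPM.

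The first comparison between genotypes was how many such cells there were. Pf4-marker cells made up 1.05% of kept cells in WT1 (exact Clopper-Pearson 95% interval 0.681 to 1.55), 0.484% in WT2 (0.341 to 0.666), 0.344% in KO1 (0.193 to 0.567) and 0.977% in KO2 (0.752 to 1.25). Each genotype had 1 library near 1% and 1 well under it, so the groups overlapped. WT libraries averaged 0.767% ± 0.400 and KO libraries 0.661% ± 0.447 (SD, n = 2), and the difference of -0.106 points gave p = 0.667 in an exact two-sided permutation test, whose smallest possible p with 2 libraries against 2 is 0.333. Intervals cover counting error only. The direction turned without WT1, where the difference was 0.177 points, without KO1, where it was 0.210, and with every cell thinned to 5000 UMIs, where it was 0.0045 with 9, 19, 6 and 32 cells. Pf4-rich cells alone made up 0.462%, 0.196%, 0.115% and 0.419% of kept cells, in the same order of libraries. A share of a sorted sample cannot tell more such cells from fewer of the other sorted cells.

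**Figure D3:**
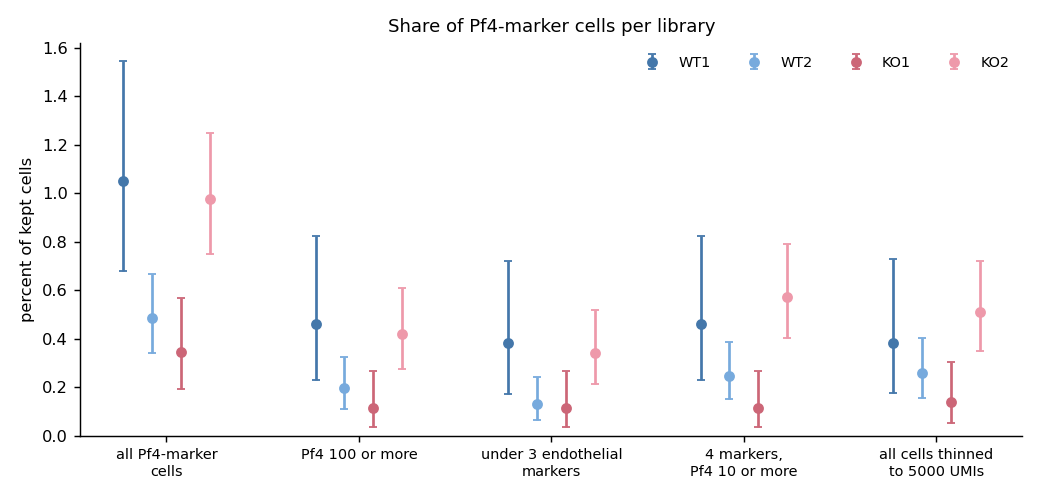
Points are the percent of kept cells counted as Pf4-marker cells in each library (WT in blue, KO in red) and bars are exact 95% Clopper-Pearson intervals, for the whole set, 3 narrower rules and all cells thinned to 5000 UMIs. Under each rule WT1 and KO2 lie above WT2 and KO1, so the genotypes overlap.

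Pf4-marker cells had a higher median of UMIs per cell than other cells in each library, and no difference between genotypes was detectable. The median UMIs per cell were 43088, 33141, 29861 and 33248, against 30535, 18751, 20557 and 19260 in other cells. KO1 was lowest and WT1 highest, and KO2 lay above WT2. The medians averaged 38114.5 ± 7034 in WT and 31554.5 ± 2395 in KO (SD, n = 2), a difference of -6560 UMIs with p = 0.667 in the exact two-sided permutation test. In Pf4-rich cells the medians were 45107, 39220, 25275 and 34448, with both KO libraries below both WT libraries and p = 0.333 in the same exact permutation test, the smallest it can give. Both sets were chosen by raw UMIs, which a deeper cell reaches more easily, so the choice itself favours high medians. With every cell thinned to 5000 UMIs, 9, 19, 6 and 32 cells met the marker rule, against 25, 37, 15 and 63 unthinned. Whether Pf4-marker cells hold more RNA than other cells was therefore not tested.

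Cell-cycle transcripts were near the level of other cells. Of 17 S phase genes none was higher than in other cells in all 4 libraries, and of 19 genes of G2 and mitosis 1 was. Over the 11306 genes the share was 20.5%. Median log2 ratios of the 2 lists were -0.07 and -0.10. The share of Pf4-marker cells with a UMI of Mki67 or Top2a, 2 genes of cycling cells, was 56%, 55.6%, 71.4% and 67.2% with each cell thinned to 5000 UMIs, over 25, 36, 14 and 61 cells. Unthinned it was 92%, 81.1%, 93.3% and 80.95%, and in other cells thinned likewise 60.8%, 59.6%, 64.8% and 57.1%. Both KO libraries lay above both WT libraries, at 69.3% ± 2.98 against 55.8% ± 0.314 (SD, n = 2), a difference of 13.5 points with p = 0.333 in the exact two-sided permutation test, the smallest it can give. At 2000 UMIs the difference turned to -0.828 points, unthinned it was 0.602, and in Pf4-rich cells, at 63.6%, 33.3%, 40% and 62.96%, it was 2.997 points and the groups overlapped. In the list for endomitosis and cyclins, Ccnd3, the cyclin D3 tied to polyploid growth, stood at 338, 292, 362 and 327 CPM against 209, 149.7, 203 and 159 in other cells, while Ccnd1 stood at 143, 109.7, 60.3 and 75.4 CPM against 227, 247, 219 and 228.

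The second comparison was gene expression in KO against WT Pf4-marker cells, with UMIs summed per library (1317808, 1312248, 431081 and 2083120) and tested with edgeR's quasi-likelihood test and Benjamini-Hochberg adjustment over 8717 genes at 0.05. The transcript that carries miR-223 was higher in KO cells and 1 ribosomal protein gene was lower; no gene of any megakaryocyte list passed. The 1 gene higher in KO is 0.0115% of those tested, the 1 lower also 0.0115%, and both together 0.0229%. At an unadjusted p under 0.05 there were 126 higher and 197 lower, and DESeq2 called 6. Leaving out WT1, WT2, KO1 or KO2 gave 24, 149, 18 or 74 calls, both of these genes among them each time; with 1 library left in a genotype, it is assumed to vary like the other genotype's pair.

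F630028O10Rik, the host transcript of miR-223 (chrX:96239926-96243636, plus strand, GENCODE M21 on GRCm38, annotated as a noncoding antisense gene), had 9, 32, 77 and 433 UMIs in the Pf4-marker cells of the 4 libraries. That is 6.83, 24.4, 179 and 208 CPM, 15.6 ± 12.4 in WT and 193 ± 20.7 in KO (SD, n = 2). Both KO libraries lay far above both WT libraries. The transcript rose in KO, with a log2 difference of 3.64 ± 0.43 (SE) and an adjusted p = 0.0365 in edgeR. The mature miR-223-3p lies inside this gene on the same strand, 731 bases from its 3' end. UMIs of a 3' end do not read the hairpin, so these counts check neither the deletion nor the labels. In other cells it stood at 0.0126, 0.141, 1.34 and 1.16 CPM and in Runx1-positive cells at 0, 0.704, 10.3 and 7.80, with KO also above WT. The Pf4-marker cells thus had the highest level of the 3 classes in each library. The KO effect in these cells minus that in other cells was -0.29, with an adjusted p = 1. In Pf4-rich cells it stood at 11.8, 61.5, 366 and 373 CPM, from 7, 32, 54 and 380 UMIs. Per cell, with 5000 UMIs each, a UMI was found in 4%, 8.33%, 42.9% and 42.6% of Pf4-marker cells.

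Without the highest cell of each library the levels were 5.60, 19.5, 105 and 189 CPM, and both KO libraries stayed above both WT libraries. The call of F630028O10Rik held in 11 of 16 alternatives, those without each library among them, with log2 differences across all 16 from 2.996 to 4.85. It was lost with a stricter or a looser marker rule, without doublet calls (adjusted p = 0.0623), without cells with endothelial genes and in Pf4-rich cells (adjusted p = 0.901, log2 difference 3.37).

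Rps2, a protein of the small ribosomal subunit (chr17:24718116-24721929), had 5969, 6174, 3199 and 2965 CPM, 6072 ± 145 in WT and 3082 ± 165 in KO (SD, n = 2). Both KO libraries stood well below both WT libraries. It fell in KO, with a log2 difference of -0.97 ± 0.13 (SE) and an adjusted p = 0.0365 in edgeR. In other cells it stood at 6042, 6388, 3682 and 3277 CPM, and the difference between the effects in the 2 classes was -0.12 with adjusted p = 0.99. In Pf4-rich cells it was at 6217, 5369, 2602 and 2717 CPM and passed (adjusted p = 0.0143). Ribosomal protein genes have near-identical pseudogene copies, among which the counting could split reads; their part in the Rps2 values was not tested. The call held in 12 of 16 alternatives, with log2 differences across all 16 from -1.13 to -0.70. It was lost with a stricter or a looser marker rule, without doublet calls and without cells with endothelial genes.

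The 2 genes of next lowest p in each direction, Hbb-bs and Wdfy1 on the higher side and Col1a2 and Dcn on the lower, did not pass; Mxra7 and Rnaset2b are given beside them as genes named whatever their test. Wdfy1, a phosphoinositide-binding endosomal protein (chr1:79702262-79776143), stood at 14.4, 8.38, 48.7 and 53.8 CPM, with a log2 difference of 2.19 ± 0.37 (SE) and an adjusted p = 0.0874, and in other cells at 8.58, 9.53, 45.6 and 50.7 CPM. Mxra7, a matrix-remodelling associated gene, stood at 67.5, 37.3, 11.6 and 9.12 CPM, with a log2 difference of -2.40 ± 0.42 (SE) and an adjusted p = 0.0996, and in other cells at 58.1, 63.04, 16.7 and 15.2 CPM. In both genes the 2 genotypes were apart in Pf4-marker cells and in other cells. Rnaset2b, a ribonuclease with a near-identical neighbour, stood at 10.6, 8.38, 0 and 1.92 CPM, from 14, 11, 0 and 4 UMIs. Its log2 difference was -2.54 ± 0.82 (SE), with an adjusted p = 1. In other cells Rnaset2b stood at 8.81, 8.44, 0.845 and 0.911 CPM, and the genotypes were apart there too. Hbb-bs, an adult β globin, stood at 1.52, 0.762, 11.6 and 37.9 CPM (2, 1, 5 and 79 UMIs), with a log2 difference of 4.55 ± 0.71 (SE) and an adjusted p = 0.054. The matrix genes Col1a2, at 75.1, 42.7, 6.96 and 10.1 CPM (log2 difference -2.63, SE 0.41, adjusted p = 0.054), and Dcn, at 25.8, 28.96, 0 and 2.40 CPM (log2 difference -3.75, SE 0.59, adjusted p = 0.054), were low in both KO libraries. In Pf4-rich cells Col1a2 stood at 3.38, 30.7, 13.6 and 4.91 CPM, from 2, 16, 2 and 5 UMIs, and overlapped.

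**Figure D4:**
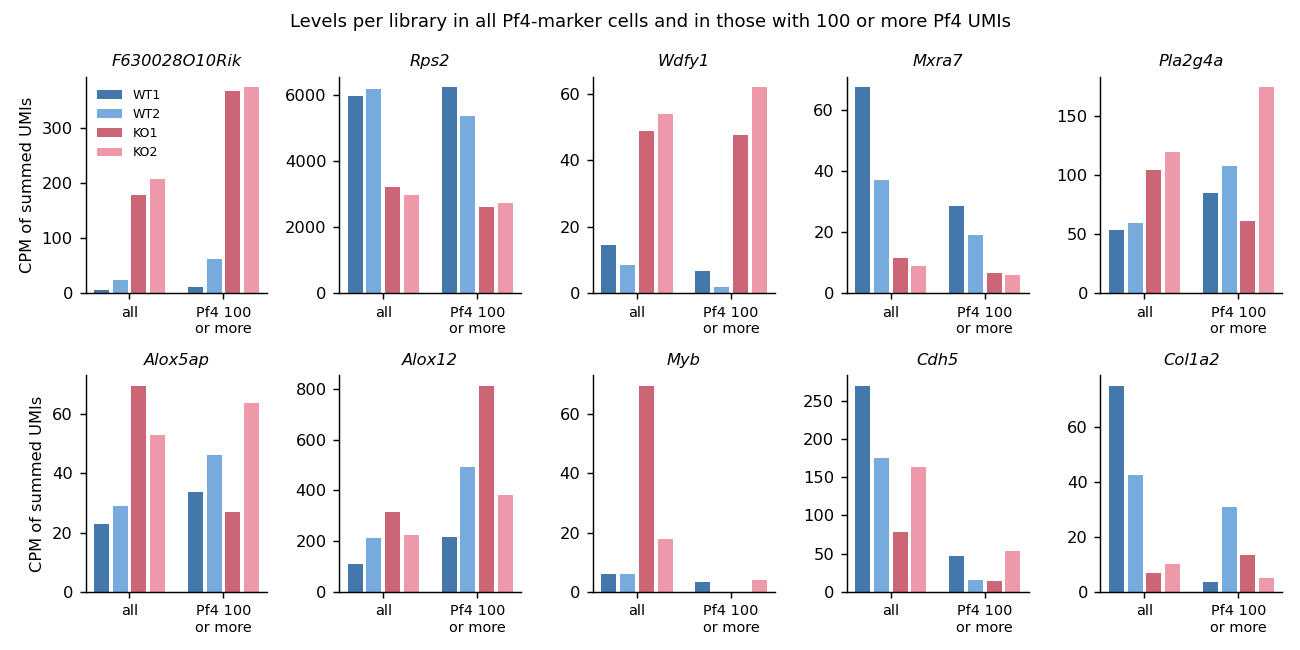
Bars are CPM of summed UMIs in each library (WT in blue, KO in red, axes from 0) for 10 genes, in all 140 Pf4-marker cells and in the 58 with 100 or more Pf4 UMIs. F630028O10Rik and Wdfy1 are higher and Rps2 and Mxra7 lower in both KO libraries in both sets of cells, whereas Cdh5 and Col1a2 are lower in KO in all cells and overlap in the Pf4-rich ones.

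Among the roles of megakaryocytes the eicosanoid enzymes stood furthest from 0 without passing: 6 of 6 tested had positive log2 differences with a median of 0.78, and in 5 both KO libraries lay above both WT libraries, where 13.8% of the 8717 genes tested did so and their median was 0.00 to 2 decimals. Pla2g4a, the phospholipase that frees arachidonic acid, stood at 53.1, 59.4, 104 and 119 CPM, 56.3 ± 4.47 in WT and 112 ± 10.4 in KO (SD, n = 2). It had a log2 difference of 1.02 ± 0.25 (SE) and an adjusted p = 0.408 in edgeR. Alox5ap, the partner of 5-lipoxygenase, stood at 22.8, 28.96, 69.6 and 52.8 CPM, with a log2 difference of 1.20 ± 0.32 (SE) and an adjusted p = 0.664. The KO libraries were above the WT libraries for both. Ptgs1, cyclooxygenase-1, stood at 67.5, 87.6, 132 and 104 CPM (log2 difference 0.58, SE 0.26, adjusted p = 1), and Alox12, platelet 12-lipoxygenase, at 108, 213, 313 and 222 CPM (log2 difference 0.72, SE 0.32, adjusted p = 1). Alox5, 5-lipoxygenase, stood at 19.7, 20.6, 32.5 and 37.4 CPM (log2 difference 0.83, SE 0.34, adjusted p = 1). Tbxas1, thromboxane synthase, stood at 30.4, 68.6, 99.7 and 68.2 CPM (log2 difference 0.71, SE 0.38, adjusted p = 1), and its genotypes overlapped. In Pf4-rich cells the median of the 6 was 0.45. Only Alox5 kept both KO libraries above both WT libraries there, at 42.2, 42.2, 60.99 and 53.98 CPM. Pla2g4a and Alox5ap overlapped, at 84.4, 108, 60.99 and 174 and 33.8, 46.1, 27.1 and 63.8 CPM. So did Alox12, at 216, 494, 813 and 382 CPM, and Ptgs1, at 127, 150, 237 and 141 CPM. Tbxas1 also overlapped, at 54.0, 159, 251 and 117 CPM.

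Of the other megakaryocyte lists 6 had small positive medians, without the marker genes. Receptors had a median of 0.28, with 17 of 20 positive. In 8 both KO libraries lay above both WT libraries, where 13.8% of the 8717 genes tested did so. Among the 8 was Gp5 at 155, 226, 292 and 288 CPM (log2 difference 0.62, SE 0.23, adjusted p = 1). Medians were 0.28 for 15 alpha granule genes, 0.14 for 14 dense granule genes, 0.21 for 25 signalling genes, 0.29 for 20 cytoskeleton genes and 0.27 for 23 transcription factors, and none of their genes passed. The 15 genes of endomitosis and cyclins had a median of 0.00 to 2 decimals, with 7 positive, and -0.02 in Pf4-rich cells. In Pf4-rich cells the medians of the other lists were 0.29 for receptors, then 0.22, 0.13, 0.08, 0.24 and 0.06. Runx1, at 65.3, 109.7, 123 and 156 CPM in Pf4-marker cells (log2 difference 0.71, SE 0.28, adjusted p = 1), stood at 117, 207, 74.5 and 207 CPM in Pf4-rich cells, where its log2 difference was -0.04. Gata2 stood at 6.83, 28.2, 41.8 and 40.3 CPM (log2 difference 1.22, SE 0.52, adjusted p = 1). S phase genes had a median of 0.03 in Pf4-marker cells and of -0.53 in Pf4-rich cells, where 2 of 16 were positive. The S phase list summed to 2293, 718, 1294 and 975 CPM in Pf4-rich cells. Both KO libraries thus lay between WT1, the highest, and WT2, the lowest, and the genotypes overlapped. Genes of G2 and mitosis had medians of 0.04 and -0.02.

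Endothelial and mesenchymal genes had medians below 0, as did the nephric (-0.91, 3 tested) and neural lists (-0.68, 4 tested). Endothelial genes had a median of -0.49, with 19 of 20 negative and both KO libraries below both WT libraries in 11, where 17.9% of genes did so; in Pf4-rich cells the median of 14 was 0.44. Cdh5, at 270.1, 175, 78.9 and 163 CPM, had a log2 difference of -0.78 ± 0.32 (SE) and an adjusted p = 1, and in Pf4-rich cells a log2 difference of 0.44. In WT1 1 cell of 209028 UMIs held 196 of 356 Cdh5 UMIs; with the highest cell of each library left out the levels were 144, 164, 48.2 and 153 CPM, and the genotypes overlapped. Mesenchymal genes had a median of -2.10, with both KO libraries below both WT libraries in 8 of 11, and 0.46 for the 2 tested in Pf4-rich cells. These levels rested on few cells: 1 cell held 78 of 107 Col1a1 UMIs in WT1 and 1 cell with 3 Pf4 UMIs held 34 of 40 in WT2. Col3a1, a collagen, at 123, 46.5, 16.2 and 20.6 CPM, had a log2 difference of -2.10 ± 0.46 (SE) and an adjusted p = 0.396; in Pf4-rich cells it had 0, 13, 7 and 18 UMIs and a log2 difference of 1.08. The 13 tested progenitor genes had a median of 0.40 in Pf4-marker cells and of 0.02 for the 8 tested in Pf4-rich cells. Myb, a progenitor factor, stood at 6.07, 6.10, 69.6 and 17.8 CPM (log2 difference 2.58, SE 0.68, adjusted p = 0.842), and Spi1, the myeloid factor PU.1, at 9.86, 9.14, 109 and 25.9 CPM (log2 difference 2.61, SE 0.74, adjusted p = 1). KO1 was by far the highest library for both, and in its 5 Pf4-rich cells neither had a UMI. The 10 tested erythroid genes had a median of 1.03, and 0.92 for the 9 in Pf4-rich cells. The 18 heat shock and immediate early genes had a median of 0.44. In 8 of them both KO libraries were higher, where 13.8% of the 8717 genes tested were. Much of the embryonic globin counts came from single cells, with Hbb-y at 93.3, 103, 726 and 225 CPM (log2 difference 2.24, SE 0.66, adjusted p = 1) and Hba-x at 65.3, 67.1, 30.2 and 16.3 CPM (log2 difference -1.69, SE 0.34, adjusted p = 0.18; 0.47 in Pf4-rich cells). Of Hbb-y 1 cell held 262 of 313 UMIs in KO1 and 1 held 106 of 135 in WT2, and of Hba-x 1 cell held 84 of 88 in WT2 and 1 held 50 of 86 in WT1. With the highest cell of each library left out Hba-x stood at 32.5, 3.13, 23.4 and 3.85 CPM. Cells with 5 or more Cdh5 UMIs were 8 of 25, 15 of 37, 2 of 15 and 23 of 63; the part of this mix in the differences above was not tested.

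**Figure D5:**
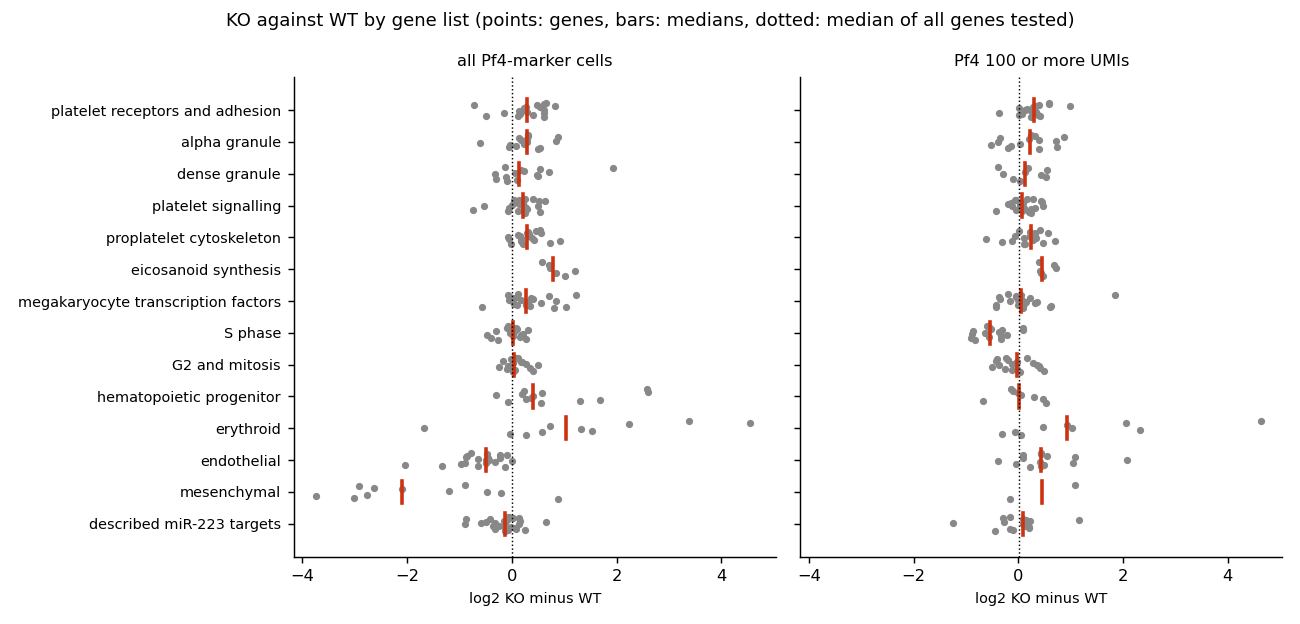
Grey points are genes by list, placed on the x axis by their log2 difference of KO minus WT, red bars are list medians, the 5 marker genes left out, and the dotted line is the median of all genes tested; the left panel has all Pf4-marker cells, the right one those with 100 or more Pf4 UMIs. The endothelial median moves from -0.49 to 0.44 and the mesenchymal one from -2.10 to 0.46 (2 genes), while the eicosanoid median is 0.78 and 0.45.

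The third comparison asked whether the difference between KO and WT was not the same in Pf4-marker cells and in other cells, with an interaction term in edgeR over 8 sums and a term for each library. Of 15106 genes 79 passed (0.523%), 25 with a more positive effect in Pf4-marker cells (0.165%) and 54 with a more negative one (0.357%). Genes of endothelium and connective tissue stood among the negative ones: 3 of 20 endothelial genes (Cdh5, Flt1 and Sox17) and 5 of 13 mesenchymal genes (Col1a1, Col1a2, Col3a1, Lum and Postn). Itga2b is among the 79, but its counts chose the cells and no test is read from it. Among the other positive ones were 1 of 22 receptors (Itga6), 1 of 7 eicosanoid genes (Alox12), 1 of 23 transcription factors (Cbfa2t3), 1 of 17 progenitor genes (Myb) and 3 of 18 heat shock and immediate early genes (Fos, Egr1 and Zfp36). Genes of this comparison outside the naming rule were chosen after their values were seen. In the Pf4-marker cells the endothelial genes summed to 3365, 2678, 1543 and 2594 CPM. The mesenchymal ones summed to 513, 293, 114 and 155 CPM there. KO1 was the lowest library for both, and WT2 and KO2 were close for the endothelial genes. The part of the mix of cells in the calls was not tested. Alox12 stood at 108, 213, 313 and 222 CPM in Pf4-marker cells and at 4.17, 4.39, 3.74 and 4.15 in other cells, with an effect difference of 0.88 ± 0.21 (SE) and an adjusted p = 0.0117. Itga6, the α6 chain of a laminin receptor, stood at 70.6, 110.5, 181 and 142 CPM and 106, 130.5, 92.98 and 116, with an effect difference of 1.002 ± 0.20 (SE) and an adjusted p = 0.000379. For Itga6 both KO libraries lay above both WT libraries in Pf4-marker cells, and the genotypes overlapped in other cells. Cbfa2t3, a corepressor that works with GATA1 and TAL1, stood at 40.98, 51.1, 95.1 and 91.7 CPM and 23.1, 27.2, 24.4 and 26.7, with 0.999 ± 0.27 (SE) and an adjusted p = 0.0417. Btg1, an antiproliferative gene with the lowest p, stood at 78.9, 89.9, 246 and 159.9 CPM and 114, 118, 94.4 and 102, with an effect difference of 1.45 ± 0.20 (SE) and an adjusted p = 1.88e-09.

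The negative side had Col1a2 at 75.1, 42.7, 6.96 and 10.1 CPM in Pf4-marker cells and 32.01, 7.37, 30.1 and 10.4 in other cells, with an effect difference of -2.40 ± 0.38 (SE) and an adjusted p = 1.08e-06. Most cells had no Col1a2 UMI, and 1 cell held 61 of 99 in WT1 and 1 with 3 Pf4 UMIs 37 of 56 in WT2. With the highest cell of each library left out, Pf4-marker cells stood at 29.3, 14.8, 2.60 and 5.82 CPM; the interaction was not refitted without these cells. Sox17, an arterial transcription factor, stood at 80.4, 46.5, 4.64 and 19.2 CPM and 94.7, 104, 81.7 and 98.1, with -1.91 ± 0.28 (SE) and an adjusted p = 4.27e-08. Cdkn1a, the cell-cycle inhibitor p21, stood at 52.4, 17.5, 4.64 and 14.4 CPM and 10.3, 17.3, 15.5 and 19.7, with -1.98 ± 0.49 (SE) and an adjusted p = 0.0369, and Ccnd1 had -0.75 ± 0.19 (SE) and an adjusted p = 0.0171. KO1 was the lowest library for all 4 in the Pf4-marker cells. In Pf4-rich cells the same test called 9 genes, 8 positive and 1 negative. The 1 of them among the 79 was Aldh1a2 (adjusted p = 0.0078), given below. Btg1, Itga6, Alox12 and Cbfa2t3 did not pass there, with effect differences of 1.51, 1.06, 0.72 and 0.47. The test gave effect differences of 0.51 for Cdh5 and 1.25 for Col3a1. Without cells with endothelial genes it called 23, of which 7 were among the 79. Btg1, Itga6, Alox12 and Cbfa2t3 were not among those 7. Against the Runx1-positive cells in place of other cells it called 0, with 188 positive and 315 negative at an unadjusted p under 0.05. Single libraries moved the count: 19 without WT1, 154 without WT2, 26 without KO1 and 198 without KO2. Aldh1a2, a retinoic acid enzyme called positive, stood at 0.759, 0.762, 57.99 and 0.960 CPM in Pf4-marker cells, so that its call rested on KO1.

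Genes with a miR-223 seed match had the same median as all genes. Of 8609 tested genes with an annotated 3' UTR, 835 (9.70%) held at least 1 AACTGAC; their median log2 difference of KO minus WT in Pf4-marker cells was 0.00 to 2 decimals, as was that of all 8609, with 49.8% positive against 49.5%. Of the 307 with the match followed by A, 50.5% were positive. In these 2 sets 14.7% and 14.98% had both KO libraries above both WT libraries, against 13.9% of all 8609, and 18.1% and 20.5% had both below, against 17.9% of all; none of their genes passed. UTRs with a match were longer, with a median of 2726 bases against 1066 without one. Of 32 listed genes that have been described as miR-223 targets, 27 were tested, 18 of them with a match, and their median was -0.13, with 8 positive, both KO libraries higher in 1 (13.8% of all genes tested) and lower in 6 (17.9% of all). Mef2c, whose sites are printed above, stood at 301, 342, 218 and 385 CPM, with a log2 difference of -0.05 (SE 0.25), and Lmo2 at 225, 267, 259.8 and 238 CPM, with 0.02 (SE 0.20); the genotypes overlapped in both. Stmn1, a tubulin-binding protein described as a target and also named after its values were seen, stood at 703, 573, 872 and 541 CPM, with 0.15 (SE 0.22), and Foxo3, named in the same way as the only listed target of the 27 with both KO libraries higher, at 6.83, 12.95, 20.9 and 12.96 CPM. In Pf4-rich cells the 16 tested targets had a median of 0.09 and the 551 genes with a match 0.08, against 0.00 for all genes. RNA levels do not show repression of translation.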

How the data were processed

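Raw UMI counts per gene and barcode were used as deposited, 1 filtered matrix per library, made with Cell Ranger 3.1.0 per the file headers; Seurat 4 is named in the submitters' processing notes. The genome build and aligner settings were not given in the sources used here, so positions and UTRs come from GENCODE M21 on GRCm38, matched by Ensembl identifier. UMIs were summed per library over the Pf4-marker cells, the Runx1-positive cells without the 5 markers and all other kept cells, and scaled to a total of 1000000 (CPM). Log2 ratios between classes used CPM + 5. KO and WT sums were tested in edgeR 4.0.16 (robust quasi-likelihood, TMM, its own filter on low counts, R 4.3.3) at a Benjamini-Hochberg adjusted p of 0.05, and DESeq2 1.42.0 was an alternative. Shares and medians were compared by exact permutation over the 4 libraries (scipy 1.17.1). For shares of cells across depths, each cell was thinned to 5000 UMIs and shallower cells were left out.

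For doublets, each cell was scored by its likeness to simulated cell pairs (2 per cell), with 0.8% called per 1000 barcodes; they were kept except in an alternative. The test was tried first on simulated counts with a set spread between libraries. It called 12 of 67 genes changed by 1 on the log2 scale, 57 of 67 changed by 2 and 59 of 66 changed by 3. There were 4 false calls. A change of 1 on the log2 scale was thus mostly missed, so a gene that did not pass is not shown to be unchanged. The cells, gene lists and tests were chosen with earlier results of these data known. Genes were named by rule: the 5 markers, the 6 most abundant genes of each megakaryocyte list, up to 15 genes leading these cells, the genes passing the KO test or the 3 of lowest p in each direction, a set of blood and endothelial genes, and the most abundant gene of each other list.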

Additional observations from a re-analysis of the deposited data

Results flagged for a closer look

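For 79 genes the difference between KO and WT was not the same in Pf4-marker cells as in other cells, by the interaction test in edgeR. Among the genes named above, the effect in Pf4-marker cells minus that in other cells was -2.40 on the log2 scale for Col1a2, -1.73 for Col3a1, -0.65 for Cdh5, 0.88 for Alox12 and 2.32 for Myb. None of these genes passed in Pf4-rich cells. Without cells with endothelial genes Col1a2 (adjusted p = 0.0216) and Col3a1 (adjusted p = 6.62e-05) passed in edgeR, and the others did not. With the highest cell of each library left out, Cdh5 stood at 144, 164, 48.2 and 153 CPM, and the genotypes overlapped. Single cells held 61 of 99 Col1a2 UMIs in WT1 and 37 of 56 in WT2. Myb had 8, 8, 30 and 37 UMIs. A further 26 barcodes met the marker rule but failed the filters on genes or mitochondrial share, 5, 8, 2 and 11 of them in WT1, WT2, KO1 and KO2, and entered no comparison.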

How the results depend on the processing

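The difference in share of Pf4-marker cells ran from -0.423 to 0.210 points without single libraries and was 0.0045 points with cells thinned to 5000 UMIs; the Mki67 or Top2a difference was -0.828 points at 2000 UMIs. In the 58 cells with 100 or more Pf4 UMIs, a limit chosen after seeing the data, log2 KO minus WT was -0.037 for Runx1, 0.44 for Cdh5, 1.08 for Col3a1 and 0.47 for Hba-x, and the log2 ratio to other cells was 4.54 for Gata1 (3.805 in all cells) and -3.76 for Cdh5 (-1.45 in all). The Cdh5 ratio was -2.34 with at least 4 markers and 10 Pf4 UMIs, -0.64 with 2 and 2, and -5.51 without cells with endothelial markers. In those 4 settings, in the order Pf4 of 100 or more, stricter, looser and without endothelial markers, edgeR called 1, 1, 1 and 0 genes in KO against WT, and 9, 4, 27 and 23 in the interaction. With Pf4 of 100 or more the gene called in KO against WT was Rps2. Under the stricter and the looser rule it was neither F630028O10Rik nor Rps2. Without doublet calls the counts were 0 and 126. Where edgeR called 0, the unadjusted p was under 0.05 for 149 genes higher and 255 lower without doublet calls, and for 50 and 86 without endothelial markers. DESeq2 called 6 and no filter on low counts 44. Against Runx1-positive cells the interaction called 0, with 188 more positive and 315 more negative at an unadjusted p under 0.05. Without single libraries the counts ran from 18 to 149 and from 19 to 198. The causes were not tested.

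With the replicate block 3 genes were called, F630028O10Rik and Rps2 among them. The numbers are not said to mark a shared litter or day. The deviations of WT1 from the mean of its genotype correlated at 0.117 with those of KO1. With 2 libraries in a genotype the value for KO2, -0.117, is fixed as the mirror of that for KO1, so only 1 value was measured. Of 374 settings for single genes 310 kept direction and side of the threshold, 9 lost the call, 51 gained one and 4 had the opposite sign. KO1 had 15 of the cells and the smallest sum, 431081 UMIs.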
